A study of Drosophila melanogaster with 10 samples.

Results

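The 76 protein-coding genes of chromosome 4 of Drosophila melanogaster, the small dot chromosome, were followed through 10 RNA sequencing libraries of S2 cells. They were taken by position: genes with an FBgn identifier listed on chromosome 4 as protein-coding, out of 17869 genes listed in all and 114 genes on that chromosome. The rule left out 4 genes by their names (ATPsynbeta, RpS3A, eIF4G1 and MED26). S2 is a cell line from late embryos whose cells resemble hemocytes, the blood cells of the fly. Every library came from cells that had received the proneural transcription factor Achaete (Ac) together with its partner Daughterless (Da), after double-stranded RNA had been used to knock down (KD) a gene. The groups were H2A.Z KD with wild-type Ac (Ac WT), Luc KD with the variant Ac R29G, and Luc KD with Ac WT in set 1, and Arp6 KD with Ac WT and Luc KD with Ac WT in set 2. Each group held 2 libraries; Luc KD was the control knockdown. Set 1 was deposited as 2 tables, here called tables A and B, with 1 library of each group in each.

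The fourth chromosome is unusual among the fly's autosomes. Its genes lie between blocks of repeats and carry heterochromatin marks such as HP1 and methylated histone H3 lysine, yet many are actively transcribed, and the protein Pof binds along the chromosome. H2A.Z, encoded in the fly by His2Av, is a histone variant found near the starts of active genes and also in heterochromatin. Arp6 is an actin-related protein in the remodelling complex that inserts H2A.Z, and in the fly it has been seen together with HP1 in heterochromatin.

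The genes differed in structure from the other autosomal protein-coding genes. Their median span was 10090 base pairs, against 2107 for the 11479 genes of the other autosomes, and their median exon length was 4300.5 base pairs, against 1697.5. The deposited tables list 5578 insertions of transposable elements, of which 565 lie on chromosome 4. An insertion lay within the span of 64 of the 76 genes (84.2%), against 6.13% of the other autosomal genes. Over all 76 genes, insertions together took up a median of 10.9% of the span and 57.0% at most, in CG11360. In 38 of the 76 genes (50%) the start lay within 1 kb of an insertion, against 4.79% of the other autosomal genes. The titin-like gene bt was longest, at 52075 base pairs, and the mitochondrial protein gene CG11077 shortest, at 687. On the BDGP6 coordinates of the tables the 76 genes run from base 879 to base 1271759, with 33 on the plus strand and 43 on the minus strand. Another listed gene overlaps 29 of them, in every case with at least 1 on the other strand. The sources used here do not give whether counting was by strand, so the reads of such pairs cannot be told apart.

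**Figure D1:**
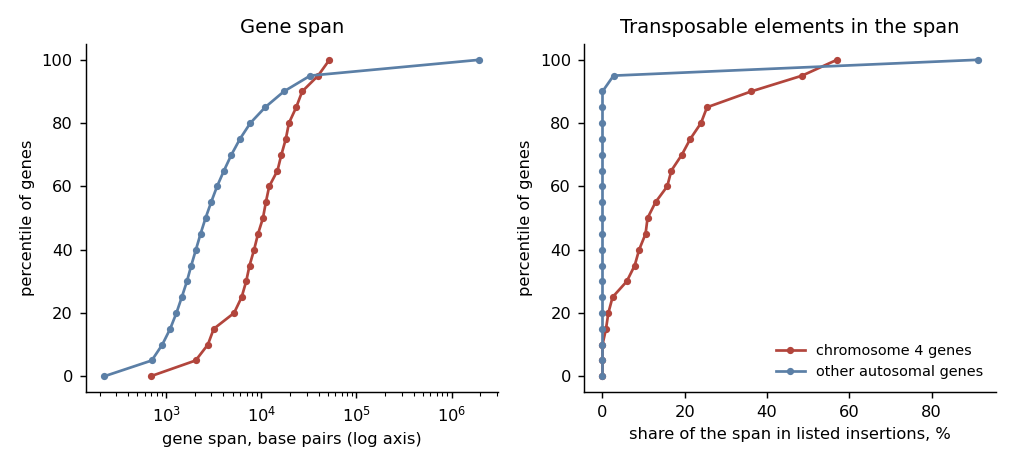
Gene span in base pairs (left, log axis) and share of the span in listed transposable element insertions (right), each against the percentile of genes, for the 75 tested chromosome 4 genes and 8593 tested protein-coding genes of the other autosomes. The chromosome 4 curve lies to the right over most of both panels; the medians of the share are 11% and 0.

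Reads of most of these genes were detected in S2 cells. Of the 76, 75 (98.7%) had a mean of at least 1 scaled read in set 1 and were tested, against 74.9% of the other autosomal protein-coding genes. That cutoff is low, and 19 of the 75 had means of only 1.49 to 32.6 scaled reads. It also takes no account of exon length, which is greater for the chromosome 4 genes. JYalpha was not tested, since its single read was in 1 Ac R29G library. In set 2, 74 were listed, without JYalpha and the Pax gene sv, and 72 were tested. Matching on expression and the ranges of level below use reads scaled by 1 factor per library and not divided by exon length. For the ranking of genes here these reads are also divided by exon length. On that scale the most abundant in Luc KD cells of set 1 was Arf102F (a class II ADP-ribosylation factor, a small GTPase of vesicle traffic; chromosome 4, bases 1124167 to 1125325, plus strand), with 3034 scaled reads per kb. It was followed by ND-49, a subunit of respiratory complex I (2654), PMCA, the calcium pump of the plasma membrane (2391), Rad23, which delivers ubiquitinated proteins to the proteasome (2302), CG11077 (2229) and CG11076 (2228). Gyf, a GYF-domain protein of translational control, and gw, the GW182 protein of microRNA silencing, had 1554 and 1551. PMCA overlaps CG32850 and CG11076 overlaps ATPsynbeta, so their levels are uncertain. The lowest tested members were sv, at 0.245 scaled reads per kb, and CG32006, at 0.555. The Pax6 genes toy and ey, known for eye development, had 2.97 and 21.6 per kb.

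The checks of the knockdowns and of the cells were as follows. His2Av was at 1713 and 795 scaled reads in H2A.Z KD, against 6484 and 5659 in Luc KD, which is 26.4% and 14.1% of control. Arp6 was at 79.8% and 22.0% of control in the Arp6 KD libraries, and this difference did not pass the test (adjusted p = 0.701, limma), so the library labelled Arp6 KD replicate 1 kept most of its Arp6 RNA. In that library ac and da, the transfected genes, were also at 48.5% and 45.9% of control, against 92.9% and 81.7% in replicate 2. In H2A.Z KD da was at 70.1% and 71.0% of control (log2 difference -0.50, limma adjusted p = 0.141, and 2.39e-05 with the table as a block), and ac at 82.1% and 106%. All 11 hemocyte markers were detected in every library. Their summed scaled reads were 746690 and 560326 in H2A.Z KD, against 583436 and 463789 in Luc KD, and 250122 and 228356 in Arp6 KD, against 211612 and 197051 in Luc KD. In H2A.Z KD 2 of the 11 passed as higher (limma), beside 2.56% of all genes tested. With the table as a block 11 passed as higher, beside 19.2% of all genes. With libraries also scaled to total gene reads 6 did, beside 9.02%. NimC1, a phagocytosis receptor, was at 598% and 612% of control (adjusted p = 0.000567, limma). None of the hemocyte markers was at 0. The germline marker vas had 177 and 275 scaled reads in H2A.Z KD, against 28.9 and 39.7 in Luc KD (adjusted p = 0.0182, limma); the 3 other germline markers did not pass. The part of these markers and of da in the results for chromosome 4 was not tested. In set 1 muscle markers summed to 28.4 to 58.9 scaled reads, germline markers to 1680 to 2529 and neuronal markers to 6149 to 8800. Most of the neuronal reads were of Syb (5393 to 7979) and most of the germline reads of bam (1598 to 2152). Among the other neuronal markers elav had 519 to 698, brp 102 to 267, nSyb 14.9 to 27.5 and Syt1 9.06 to 13.9. The germline markers nos and osk had 20.4 to 77.5 and 13.2 to 36.2. The depth per library ran from 24500413 to 33712374 reads (set 1) and from 9396318 to 10608470 (set 2). Nothing in the labels ties the libraries to separate cultures, and each p-value therefore reflects library-to-library spread alone, which may be technical. In bulk RNA, fewer cells with a transcript and less of it per cell cannot be told apart.

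H2A.Z knockdown was set against Luc knockdown, both with Ac WT, to ask how far the chromosome 4 genes follow the level of this histone variant. Arf102F rose, and it was the only one of the 75 tested genes to pass the test across all genes. Beyond it, the median difference of the chromosome 4 genes stood 0.26 log2 units above that of other autosomal genes of like expression. It stood above in the weakly and moderately expressed genes and below in the most strongly expressed ones. Scaled reads of Arf102F were 4406 and 4882 in H2A.Z KD, against 2872 and 2771 in Luc KD, and 3048 and 2838 in Luc KD with Ac R29G. Both H2A.Z KD libraries lay above all 4 others. The log2 difference was 0.72 (SE 0.09, adjusted p = 0.0185, limma with Benjamini-Hochberg adjustment; higher in 2 of 2 tables). Across all 11944 genes tested, 4.6% passed the same test, so 1 of 75 (1.33%) is below that share. With 1 library left out at a time Arf102F kept a log2 difference of 0.64 to 0.79, and it still passed only without the H2A.Z KD library of table A. Without any of the other 5 libraries its adjusted p was 0.0569 to 0.13 (limma).

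Libraries deposited in the same table varied together, and with the table as a block in the fit 22 of the 75 genes passed (29.3%), 19 of them higher and 3 lower. The share over all genes was 37.5% in that fit, with 19.2% higher and 18.3% lower. With any library left out, a group holds no replicate, so only the effect size is given for such fits. The median difference of the chromosome 4 genes was then 0.15 to 0.24. The direction of the calls with the block depends on how libraries are scaled. With each library scaled to its total gene reads, which moved the median of all genes to -0.19, 4 chromosome 4 genes passed as higher and 22 as lower, beside 9.02% and 33.9% of all genes. With library medians, which moved it to 0.12, 33 passed as higher and 2 as lower, beside 26.9% and 11.3%. Relative to the median of all genes the picture moved less, with 58, 58 and 59 of the 75 genes above it in the 3 scalings. In all 5 scalings tried, 4 genes passed as higher (Arf102F, Actbeta, CG11076 and dati) and 2 as lower (Sox102F and bip2), beside 8.5% and 10.8% of all genes; both counts are below those shares. Without limma's intensity trend 0 chromosome 4 genes passed, with or without the block, and of all genes 0 passed with it and 2 without; Arf102F then had an adjusted p of 0.127 (limma without the block).

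Actbeta encodes an activin-type ligand of the TGF-beta family (bases 1077331 to 1084796, minus strand). It had 19.3 and 27.0 scaled reads in H2A.Z KD, against 6.81 and 11.2 in Luc KD, which differ by 1.29 in log2 (SE 0.45, limma adjusted p = 0.143, and 0.0254 with the block). The 2 groups did not overlap, but these are a few reads per library. CG11076 (bases 1029711 to 1031757, minus strand), had 4433 and 3916 scaled reads in H2A.Z KD, against 3576 and 2979 in Luc KD. Its log2 difference was 0.35 (adjusted p = 0.145; 0.000179 with the block, limma). It overlaps ATPsynbeta on the other strand, whose scaled reads were 41349 and 45348 in H2A.Z KD, against 31265 and 38989 in Luc KD, so the source of the CG11076 reads is uncertain. The zinc finger gene dati (bases 375640 to 395605, minus strand) had 983 and 850 scaled reads in H2A.Z KD, against 782 and 573 in Luc KD, which differ by 0.45 in log2 (limma adjusted p = 0.178, and 0.0008 with the block). Its groups did not overlap, and it too has noncoding genes on the other strand.

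The SoxD transcription factor gene Sox102F (bases 800436 to 834393, minus strand) was the clearest gene on the lower side. Its scaled reads were 273 and 272 in H2A.Z KD, against 385 and 370 in Luc KD, and 376 and 377 in Luc KD with Ac R29G. The H2A.Z KD libraries lay below all others. The log2 difference was -0.47 (SE 0.13, adjusted p = 0.0833; 0.0027 with the block, limma; lower in 2 of 2 tables). The gene bip2, which encodes a TFIID subunit (bases 459887 to 466828, minus strand, with an antisense gene), had 4485 and 3902 scaled reads in H2A.Z KD, against 5343 and 4848 in Luc KD. Its log2 difference was -0.28 (adjusted p = 0.18; 0.000764 with the block, limma). Crk, an SH2 and SH3 adaptor protein, had 1858 and 1437 scaled reads in H2A.Z KD, against 2281 and 1697 in Luc KD. The Crk groups overlapped, since the table B control lay below the table A knockdown, and its log2 difference was -0.27 (adjusted p = 0.388; 0.0115 with the block, limma).

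**Figure D2:**
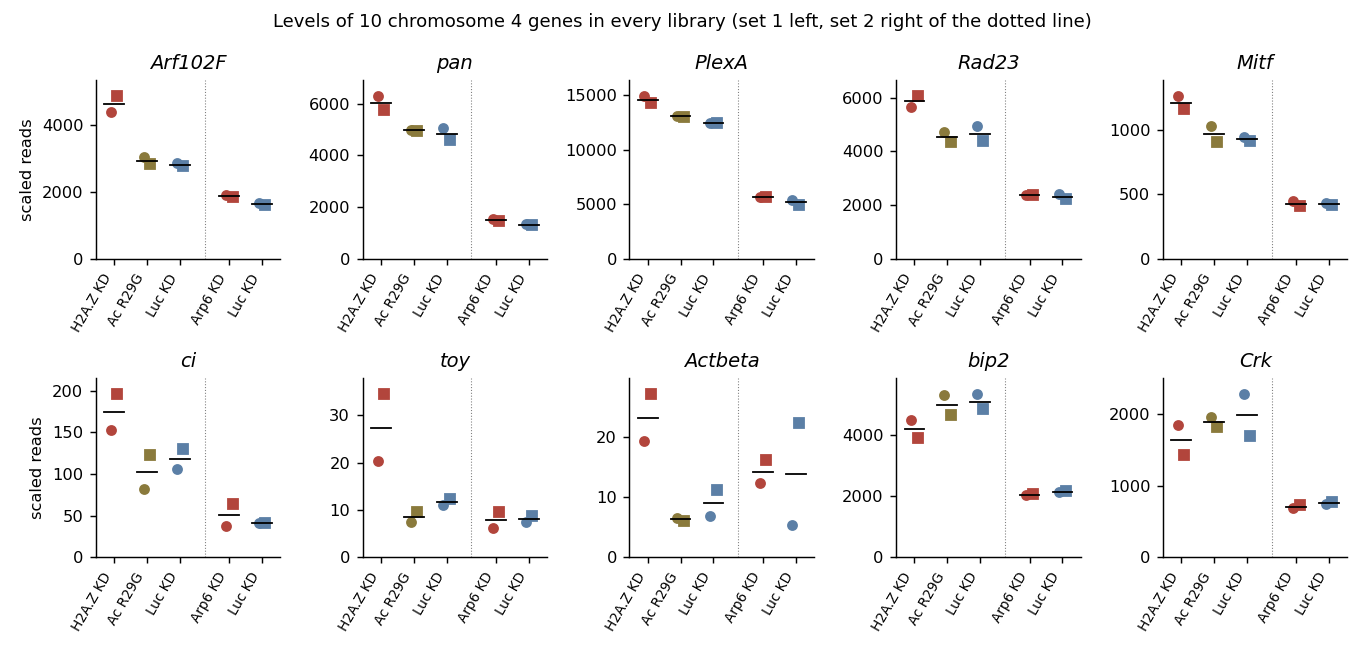
Scaled reads (linear axes from 0) of 10 chromosome 4 genes in every library: H2A.Z KD, Ac R29G and Luc KD of set 1, then Arp6 KD and Luc KD of set 2. Circles are table A or replicate 1, squares table B or replicate 2, and bars the mean of 2 libraries. For 8 genes, Arf102F to Actbeta, both H2A.Z KD libraries lie above both Luc KD libraries of set 1, and for bip2 both lie below.

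Transcription factors and their cofactors form the best known group on the chromosome. The list used here leaves out the TFIID subunit gene bip2, which passed as lower with the block. Of the 16 listed, 16 were tested, and 14 had a positive log2 difference in H2A.Z KD; the median was 0.36, against -0.00 over all genes. None passed the fit without the block. With the block 5 passed as higher and 1, Sox102F, as lower, beside 19.2% and 18.3% of all genes. With libraries scaled to total gene reads 1 passed as higher and 4 as lower, beside 9.02% and 33.9%. The list's median stood 0.36 and 0.35 above that of all genes in the 2 scalings. The shares of all genes that passed apply to the lists below too. None of the lists was matched on level, and this one holds weakly expressed genes such as toy beside abundant ones such as pan. Among all tested chromosome 4 genes the median was 0.47 and 0.37 in the 2 lower of 4 ranges of level. It was 0.03 in each of the 2 higher ranges. Differences between the medians of the lists therefore cannot be told apart from differences in level. The Pax6 gene toy had 20.4 and 34.4 scaled reads in H2A.Z KD, against 11.1 and 12.2 in Luc KD (log2 difference 1.12, adjusted p = 0.0328 with the block, limma). The Hedgehog effector ci had 153 and 195 in H2A.Z KD, against 106 and 130 in Luc KD (0.56, adjusted p = 0.0137 with the block, limma), and it overlaps an antisense gene. The groups did not overlap for either gene.

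The Wnt effector pan, the fly TCF protein, was far more abundant. It had 6295 and 5772 scaled reads in H2A.Z KD, against 5047 and 4607 in Luc KD, which differ by 0.32 in log2 (SE 0.09, limma adjusted p = 0.0912, and 0.000302 with the block). Mitf, a factor for lysosome genes, had 1261 and 1158 scaled reads in H2A.Z KD, against 940 and 909 in Luc KD (0.39, adjusted p = 0.000841 with the block, limma). All Mitf and pan values of H2A.Z KD lay above those of Luc KD. In contrast lgs, the BCL9 partner of the Wnt pathway, differed by 0.02 (SE 0.08) and pho, a DNA-binding recruiter of Polycomb proteins, by 0.02 (SE 0.17), and neither passed either fit. The second Pax6 gene, ey, had 97.4 and 103 scaled reads in H2A.Z KD, against 90.2 and 70.2 in Luc KD, and did not pass (log2 difference 0.33, adjusted p = 0.217 with the block, limma).

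Ligands and signalling proteins gave 6 positive and 3 negative differences among 9, with a median of 0.16. With the block Actbeta and myo passed as higher and Crk as lower; with libraries scaled to total gene reads 1 passed as higher and 3 as lower. The TGF-beta ligand myo had 4476 and 3980 scaled reads in H2A.Z KD, against 3665 and 3191 in Luc KD, with no overlap (log2 difference 0.30, adjusted p = 0.000533 with the block, limma). The other ligand of that family, mav, differed by 0.58 in table A and 0.04 in table B and did not pass.

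Guidance and neuronal genes gave 9 positive differences among 12 (median 0.18). The semaphorin receptor PlexA had 14902 and 14236 scaled reads in H2A.Z KD, against 12434 and 12430 in Luc KD, without overlap (log2 difference 0.23, adjusted p = 0.00215 with the block, limma; -0.0072 with quantile normalization). Cadps, which primes dense-core vesicles for release, had 414 and 392 in H2A.Z KD, against 315 and 280 in Luc KD (0.44, adjusted p = 0.00517 with the block, limma). These 2 were the only genes of the list to pass with the block; with libraries scaled to total gene reads none passed as higher and 4 as lower. Eph and Ephrin, a receptor and ligand pair, differed by 0.07 and 0.13 and did not pass.

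Of 12 tested genes of RNA control and cell maintenance, 10 had a positive difference, with a median of 0.09. That was the smallest of the 4 lists, which were not matched on level. Rad23 and the small GTPase gene Arl4 passed with the block as higher; with libraries scaled to total gene reads none passed as higher and 5 as lower. Rad23 had 5675 and 6066 scaled reads in H2A.Z KD, against 4955 and 4376 in Luc KD, without overlap (log2 difference 0.33, adjusted p = 0.000746 with the block, limma). The abundant genes ND-49, PMCA, Gyf and gw differed by 0.05, 0.01, 0.11 and 0.07 and did not pass. The remaining 26 genes, which stand in none of these lists, had 19 positive differences and a median of 0.18. Of them, 8 passed with the block as higher, among them CG33978 (0.72), CG1909 (0.71) and CG32017 (0.64), and bip2 as lower. With libraries scaled to total gene reads 2 passed as higher and 6 as lower. CG32017 overlaps 2 genes on the other strand and CG33978 an antisense gene, so the source of their reads is uncertain.

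The proteins of heterochromatin and of the fourth chromosome are encoded elsewhere in the genome, and their RNA was compared too. Of 15 listed genes none passed the fit without the block. With the block the gene of HP1a passed as higher (log2 difference 0.20, adjusted p = 0.0162, limma; -0.00039 with total gene reads), as did the histone methyltransferase gene G9a (0.24) and HP4 (0.22). The gene egg, for a histone methyltransferase that acts on this chromosome, passed as lower (-0.26, adjusted p = 0.00588 with the block, limma). Pof differed by -0.10 and passed neither fit. With the block 3 of the 15 thus passed as higher and 1 as lower, beside 19.2% and 18.3% of all genes. With libraries scaled to total gene reads none of the 15 passed as higher and 7 as lower, beside 9.02% and 33.9%. The direction of the calls depends on the scaling here too. The list's median was -0.03 on the main scaling.

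Taken over all 75 tested genes, the median log2 difference was 0.18, with 58 above 0 and 17 below. For 6488 protein-coding genes of the other autosomes with means between the 10th and 90th percentile of the chromosome 4 genes, the median was -0.08, and 42.0% were above 0. Within table A the medians were 0.15 for the chromosome 4 genes and -0.06 for the genes of like expression, and within table B 0.20 and -0.09. In 33 of the 75 genes (44%) both H2A.Z KD libraries lay above both Luc KD libraries, beside 26% of all genes tested. In 6 (8%) both lay below, beside 26.1% of all genes. Among the genes of like expression the shares were 22.3% above and 34.8% below. The members are neighbours on 1 chromosome measured in the same 4 libraries, and no test of the set was made.

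The comparison group mattered. For autosomal genes matched on both expression and gene span the median was -0.03 (2763 genes), and for those matched on reads per kb of exon it was -0.09 (6573 genes). For autosomal genes of like expression with an insertion in their span it was 0.07 (474 genes), and for X-linked genes of like expression 0.09 (1394 genes). Against those 2 groups the chromosome 4 median was higher by 0.11 and 0.09, less than the 0.26 against all autosomal genes of like expression. For the 36 tested genes in the windows next to the centromeres of the other autosomes the median was -0.01.

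**Figure D3:**
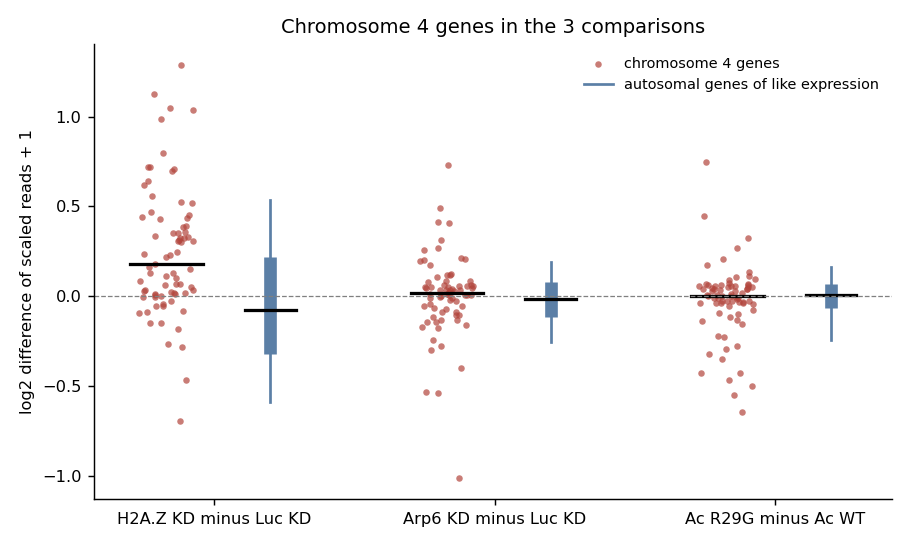
Log2 differences of chromosome 4 genes (points; black line, median) in H2A.Z KD minus Luc KD, Arp6 KD minus Luc KD and Ac R29G minus Ac WT, beside autosomal genes of like expression (thin bar, 10th to 90th percentile; thick bar, 25th to 75th; black line, median). In H2A.Z KD the medians are 0.18 and -0.08; in Arp6 KD 0.02 and -0.02, and with Ac R29G 0.00 and 0.00.

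The level of expression separated the chromosome 4 genes from one another. In the lowest of 4 ranges of level, with means of 1.49 to 32.6 scaled reads, 17 of 19 genes had a positive difference and the median was 0.47, against 0.04 for autosomal genes in the same range. In the second range, up to 878 scaled reads, 17 of 18 were positive, with a median of 0.37 against -0.21. In the third range the medians were 0.03 and -0.04. In the highest range, from 3952 to 18537 scaled reads, the order was the other way round, with 0.03 for the chromosome 4 genes and 0.16 for the autosomal genes. From the lowest range to the highest, 2 of 19, 9 of 18, 6 of 19 and 5 of 19 genes passed with the block. In that fit 37.5% of all genes passed, and 46.9% of the autosomal genes of like expression. The X-linked medians in the 4 ranges were 0.08, -0.02, 0.14 and 0.23. The reads in the lowest range are few, and the pseudocount of 1 understates their differences.

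**Figure D4:**
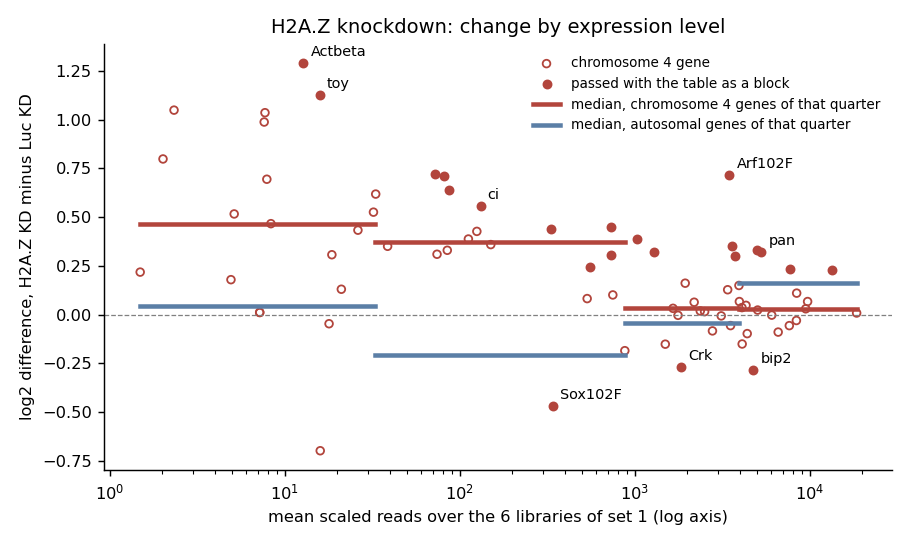
Log2 difference in H2A.Z KD minus Luc KD against mean scaled reads (log axis) for 75 chromosome 4 genes; filled points passed with the table as a block. Horizontal lines are medians of chromosome 4 genes and of autosomal genes in the 4 ranges of level; they are 0.47 and 0.04 in the lowest range and 0.03 and 0.16 in the highest.

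The 76 genes together took a smaller share of each library in H2A.Z KD. They took 0.612% and 0.622% of gene reads in H2A.Z KD, against 0.665% and 0.672% in Luc KD, and 0.656% and 0.668% in Luc KD with Ac R29G. Both H2A.Z KD libraries lay below the 4 others. This does not hold for the chromosome as a whole. With RpS3A, ATPsynbeta, eIF4G1 and MED26, which the rule left out, its protein-coding genes took 1.1% and 1.16% in H2A.Z KD, against 1.08% and 1.18% in Luc KD, and the groups overlapped. Nor was a smaller share particular to the 76 genes. With libraries scaled to total gene reads the median log2 difference of all genes was -0.19, and that of the 75 tested chromosome 4 genes was 0.02. At the same time the median level of the tested genes stood above that of the genes of like expression by 0.75 and 0.61 log2 units in H2A.Z KD, against 0.49 and 0.53 in Luc KD. Both H2A.Z KD values lay above both Luc KD values.

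**Figure D5:**
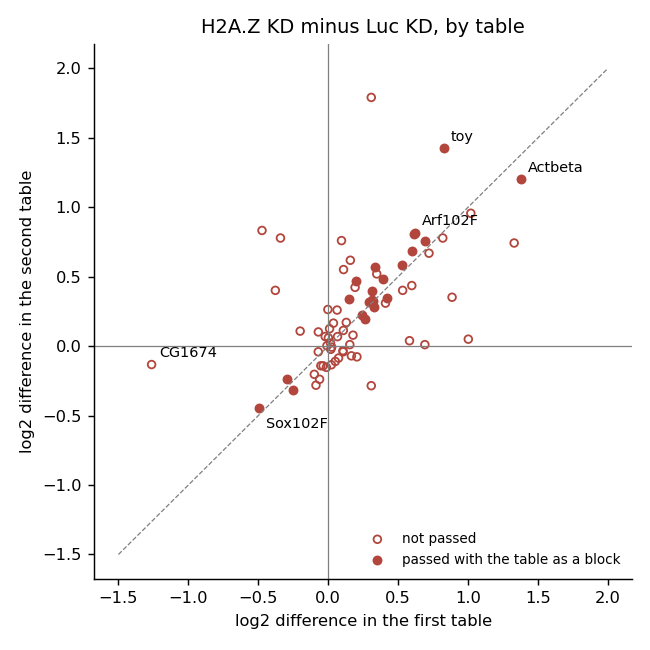
Log2 difference in H2A.Z KD minus Luc KD for 75 chromosome 4 genes in the first table (A) against the second table (B); the dashed line marks equal values and filled points passed with the table as a block. The difference is positive in both tables for 46 genes and negative in both for 11.

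The 2 tables gave the same sign for most of the genes. The difference was positive in both for 46 of 75 (61.3%), beside 38.5% of all genes, and negative in both for 11 (14.7%), beside 37.5%. The median was 0.31 for the 38 genes whose start lay within 1 kb of an insertion and 0.10 for the 37 others, but the first group was also far less expressed, with a median of 84.5 scaled reads against 1943. By contrast, the 11 genes without any insertion in their span had a higher median (0.31) than the 64 with one (0.14). Genes on the plus strand had a median of 0.33 (n = 32; median level 229 scaled reads) and genes on the minus strand 0.05 (n = 43; 1768 scaled reads). The 38 genes farthest along the chromosome had a median of 0.31 and the 37 tested genes before them 0.08.

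Arp6 knockdown was set against its own Luc knockdown in set 2, since Arp6 belongs to the complex that deposits H2A.Z. No chromosome 4 gene passed (0 of 72, limma), beside 0.0283% of the 10605 genes tested, and 4 of 72 had an unadjusted p under 0.05, beside 6.97% of all genes. Those were Arf102F, Thd1, Gyf and pan, each with a log2 difference between 0.17 and 0.20. Arf102F had 1920 and 1853 scaled reads in Arp6 KD, against 1659 and 1621 in Luc KD, a log2 difference of 0.20 (adjusted p = 0.649, limma). The Arf102F groups did not overlap. Thd1, a thymine DNA glycosylase that overlaps zfh2, had 3074 and 3012 scaled reads in Arp6 KD, against 2628 and 2684 in Luc KD (0.20, adjusted p = 0.649, limma). Gyf had 3355 and 3629 in Arp6 KD, against 2966 and 3092 in Luc KD (0.20, adjusted p = 0.658, limma). The groups of Thd1 and Gyf did not overlap either. These 4 genes passed edgeR on whole reads with the replicate as a block, in which 10.8% of all genes passed.

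The median over the 72 genes was 0.02 in Arp6 KD, with 42 above 0, against -0.02 for the autosomal genes of like expression. By replicate it was -0.00 and 0.07. Both Arp6 KD libraries lay above both controls for 19 genes (26.4%), beside 18.6% of all genes, and below them for 10 (13.9%), beside 20.4%. Of the 19 genes that passed as higher in H2A.Z KD with the block, 12 had a positive difference in Arp6 KD, with a median of 0.04. Both Arp6 KD libraries lay above both controls for 5 of them (Arf102F, PlexA, Arl4, CG32017 and pan) and below for 2 (CG1909 and Cadps), and the other 12 overlapped. Among those that overlapped, toy had 6.12 and 9.46 scaled reads in Arp6 KD, against 7.41 and 8.75 in Luc KD, and Actbeta 12.2 and 16.1, against 5.29 and 22.4. All 3 genes that passed as lower in H2A.Z KD had a negative difference here too, and Crk and bip2 did not overlap their controls. Sox102F had 105 and 134 in Arp6 KD, against 125 and 142 in Luc KD, with overlap. CG32017 had 23.5 and 26.5 in Arp6 KD, against 16.9 and 12.6 in Luc KD, the largest positive difference of the 72 genes (log2 0.73), and did not pass. It overlaps Kif3C and CG11155 on the other strand, so the source of its reads is uncertain. The 74 listed genes took 0.7% and 0.735% of gene reads in Arp6 KD, against 0.724% and 0.718% in Luc KD. With the 4 genes left out by the rule the shares were 1.39% and 1.42% in Arp6 KD, against 1.41% and 1.38% in Luc KD. In the first count the Arp6 KD values lay on either side of the controls, and in the second the groups overlapped. The weak depletion of Arp6 in replicate 1 limits this comparison, and the difference between the 2 knockdowns was not tested, since the sets were not fitted together.

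Ac R29G was set against Ac WT under Luc knockdown. No chromosome 4 gene passed, with or without the block (0 of 75 each, limma), beside 0% of all 11944 genes without the block and 0.62% with it. None had an unadjusted p under 0.05, beside 2.01% of all genes, and none passed edgeR or DESeq2. The median was 0.00, with 38 above 0 and 37 below, and it was 0.00 as well for the autosomal genes of like expression. Both Ac R29G libraries lay above both Ac WT libraries for 9 genes (12%) and below for 7 (9.33%), beside 12.1% and 11.2% of all genes. The 2 Pax6 genes were low in both groups: toy had 7.43 and 9.46 scaled reads with Ac R29G, against 11.1 and 12.2 with Ac WT, and ey 76.2 and 72.2, against 90.2 and 70.2. For toy the Ac R29G libraries lay below the Ac WT libraries, and for ey they overlapped. These comparisons share the Luc KD libraries with Ac WT with the H2A.Z comparison, so a gene that is low in those libraries is raised in both.

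The authors' deposited table for H2A.Z KD listed 75 of the genes, 58 of them with an adjusted p, and 4 of these were under 0.05, 3 with a positive log2 fold change; over all genes of that table with an adjusted p the share was 17.7%. In the authors' deposited table Arf102F had a log2 fold change of 0.71 (adjusted p = 1.79e-06), pan 0.31 (0.0351) and Sox102F -0.48 (0.0397). The median over the 75 genes in the authors' deposited table was 0.22, against 0 over all genes. In the authors' deposited table for Ac WT against Ac R29G, none of the 75 passed, beside 0.0653% of all genes.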

How the data were processed

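RNA sequencing libraries of S2 cells were analysed from 3 deposited tables. What the authors deposited is signal: reads of each gene after division by a library's size factor. Every value (100%) was a whole multiple of 1 read within a tolerance of 0.001 reads, so whole reads were recovered. The 2 comparison tables the authors deposited hold mean signal, log2 fold changes and their errors, a score (fold change over its error) and p-values, per the file headers. The submitters' processing notes name Partek and BDGP6. Aligner, counter and use of strand: not given in the sources used here. Libraries were made with an MGIEasy or a TruSeq kit, per the labels' protocols, with no key from kit to library. The columns of set 1 carry no replicate number.

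For set 1, median-of-ratios factors were computed anew over its 6 libraries; set 2 kept its deposited values, and the sets were never fitted together. Genes with a mean of 1 or more were tested on log2(value + 1) in limma 3.58.1 (R 4.3.3), with its intensity trend, Benjamini-Hochberg adjustment over all genes and a threshold of 0.05; that scale is used for every fold change. The design foresaw edgeR for raw counts; the values were scaled, so limma was used, with edgeR 4.0.16 and DESeq2 1.42.0 as alternatives for the recovered reads. The fits were tested on simulated data. Within a table, deviations from the group means had correlations of 0.62, 0.58 and 0.65 (9106 genes, means of 10 or more), so set 1 was read as paired by table; this rests on the tables, not on the labels. Genes of like expression are protein-coding genes of 2L, 2R, 3L and 3R with means between the 10th and 90th percentile of the tested chromosome 4 genes. These means were not divided by exon length. Windows next to the centromeres were 1 Mb on 2L and 3 Mb on the other arms. All 76 genes were found in the reference annotation with the same coordinates. Named genes are those that passed (at most 10 in each direction, 8 with the block), the 8 with the most reads per kb and members of the role lists; CG11360, CG32006 and other extremes were named after their values were seen. The genes and lists were chosen with earlier results of these data known.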

Additional observations from a re-analysis of the deposited data

How the results depend on the processing

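In H2A.Z KD, the number of chromosome 4 genes that passed was 1 in limma without the block, 22 with the table as a replicate block, 23 of 66 in edgeR with the block (49.5% of all genes) and 4 of 57 in DESeq2 (17.4%). It was 7 with library medians (9.08% of all genes), 5 with total gene reads (12.4%) and 0 without the intensity trend, where 2 genes passed in all. With the block it was 35 with library medians (38.2%), 14 in DESeq2 (37.7%) and 0 without the trend. Leaving out 1 library at a time gave 0 to 1, and 13 to 28 with the block. The median difference was 0.15 to 0.24 with 1 library left out, 0.15 with a pseudocount of 5, 0.13 with a mean of at least 10, 0.13 with quantile normalization, 0.28 with library medians, 0.14 with TMM factors, 0.13 in edgeR with or without the block and 0.020 with total gene reads. The gap to the genes of like expression was 0.22 to 0.33 with 1 library left out, 0.19 with quantile normalization, 0.11 against genes with an insertion and 0.090 against X-linked genes.

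In Arp6 KD, 0 of 72 passed in limma with or without the block, beside 0.0283% of all genes without it and 0% with it. In edgeR with the block 4 of 62 passed (10.8% of all genes), and 3 of 72 with the block on library medians (2.87%). The correlation of the paired deviations was 0.50 with only 2 pairs. The median was 0.0094 to 0.057 with 1 library left out and -0.045 with total gene reads. The gap was 0.025 to 0.067. With Ac R29G, 0 passed throughout, with or without the block or 1 library. The median was -0.023 to 0.047 with 1 library left out and -0.043 with total gene reads, and the gap -0.013 to 0.042, or -0.029 against X-linked genes. The scalings to total gene reads, the comparison groups with insertions, matched spans and X-linked genes, and DESeq2 with the block were chosen after seeing the data. Fits with the block on quantile normalization, library medians or TMM factors, or without the intensity trend, were not planned beforehand either. Named genes that passed with the block kept their sign in all 5 scalings, except PlexA (-0.0072 with quantile normalization) and the HP1a gene (-0.00039 with total gene reads), whereas ND-49, PMCA, Gyf and gw, which did not pass, differed by -0.15, -0.19, -0.09 and -0.13 with total gene reads. Depth limits set 2 and the weakly expressed genes.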
